A study of Mus musculus with 18 samples.

Results

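Advanced pluripotent stem cells, or ASCs, were compared with naive embryonic stem cells (ESCs) over all genes. The comparison took the 6 samples labelled ASC or ESC, 3 of each, out of 18 in the series. ASCs were cultured in ABCL, an N2B27-based serum-free medium with activin A, BMP4, the GSK3 inhibitor CHIR99021 and LIF, and had been derived from clones of AFSCs, blastocyst-derived cells grown in activin A and bFGF. ESCs were grown in 2i/LIF, in which a MEK inhibitor and CHIR99021 are combined with LIF. Both groups carry the labels wild type and 129S2/SvPasCrl, whereas the methods of the study describe derivation from embryos of mixed background. They derive ASCs from a line with a GFP reporter under a *Pou5f1* regulatory fragment, and another ASC line carried a Stella-GFP reporter. The ESCs that the study used for RT-qPCR also came from fathers with the *Pou5f1* reporter. Which lines were sequenced is not given in the sources used here. Medium, origin and line therefore cannot be told apart in this comparison. A further group of 3 samples, ESC-ASCs, is made up of ESCs moved into ABCL, and its values are given beside the others.

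Mouse pluripotent cells depend on a few signals. FGF acts through ERK and pushes naive cells toward differentiation, and the MEK inhibitor of 2i blocks that route. BMP signals through SMAD1 and SMAD5 to the Id genes, activin and *Nodal* signal through SMAD2 and SMAD3, WNT or a GSK3 inhibitor stabilizes beta-catenin, and LIF activates STAT3. ABCL thus adds activin A and BMP4 to inputs shared with 2i/LIF and leaves out the MEK inhibitor.

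Each sample was measured by RNA sequencing, as counts of fragments per gene. Levels below are normalized counts per kb: counts divided by a size factor of the sample and by the exonic length of the gene. A gene was called when edgeR's quasi-likelihood test gave an adjusted p below 0.05 and a log2 fold change, ASC over ESC, beyond 1 in either direction. Log2 fold changes are given with the standard error of the fit, and where a group held 3 counts or fewer their size depends on the prior count of the fit and is uncertain. Of 16901 genes tested, 3129 were called higher in ASCs, which is 18.5%, and 1227 lower, which is 7.26%, so that 25.8% were called in all. At a stricter threshold of 2 on the log2 fold change and of 3 on the mean log2 level of either group, 5.46% were higher and 1.17% lower. Groups did not overlap at 55.8% of the tested genes and at 4247 of the 4356 called. A lack of overlap alone is therefore the usual case here. The median log2 fold change over all tested genes was 0.02.

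Total counts ran from 7165615 to 8148294 in ASCs and from 4961934 to 8077252 in ESCs. The first replicate of either group stood apart from the others: its log2 abundances correlated with those of the 2 other replicates at r = 0.97 in both groups, against 0.99 between those other replicates. Mitochondrial transcripts took 8.08% of counts in the first ESC sample, against 2.70% and 2.92% in the other 2, and ribosomal protein genes took 5.92% in the first ASC sample, against 10.2% and 8.94%. Both groups had summed levels of the pluripotency markers *Pou5f1*, *Sox2*, *Nanog*, *Zfp42* and *Esrrb* between 9031 and 14978, and none of these 5 genes was called. Leaving out both first replicates left 2727 genes called higher and 1039 lower.

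X-linked genes were shifted as a whole. The median log2 fold change was 1.03 over 641 tested X-linked genes, against values between -0.12 and 0.19 on the 19 autosomes. By sample, the median of X-linked genes relative to autosomal genes and to the ESC mean was 1.10, 0.93 and 0.97 in ASCs and between -0.02 and 0.05 in ESCs. Of the X-linked genes, 309 were called higher in ASCs, or 48.2%, and 7 lower, or 1.09%. The autosomal background, 17.4% called higher and 7.48% lower, is therefore the one to set beside most lists. Whether ASCs had more active X chromosomes or X copies, or ESCs had fewer, cannot be told apart from these counts. On the same scale the mean was 0.00623 in ESCs and 0.0125 in ESC-ASCs, the group with Y-linked counts given below. It was -0.0215 in AFSCs, 0.0561 in epiblast-like cells and 0.0403 in epiblast stem cells. ASCs alone stood apart. The paper describes both X chromosomes as active in female naive ESCs. How many were active in the sequenced ESCs was not tested. *Xist*, the RNA of the inactive X, had 33.8, 16.0 and 17.6 in ASCs and 10.8, 4.74 and 4.29 in ESCs, a difference of log2 fold change 1.81 ± 0.34, adjusted p = 0.00031. The 4 Y-linked genes *Ddx3y*, *Eif2s3y*, *Kdm5d* and *Uty* summed to 1 count in every ASC sample and to 1 to 6 counts in ESC samples, but to 3180 to 3338 in ESC-ASC samples. The ESC-ASC samples thus differ from both groups in sex chromosomes, from ESCs also in medium and from ASCs also in origin. Comparisons of ESC-ASCs with ESCs use the same 3 ESC samples as those of ASCs, so the sets of values are not independent and are only set side by side. Against ESCs, 19.3% of tested genes were called higher in ESC-ASCs and 17.1% lower. ESC-ASC samples had 17813619 to 18071600 total counts, more than any ASC or ESC sample. Raw counts and shares called are therefore not at equal depth.

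**Figure D1:**
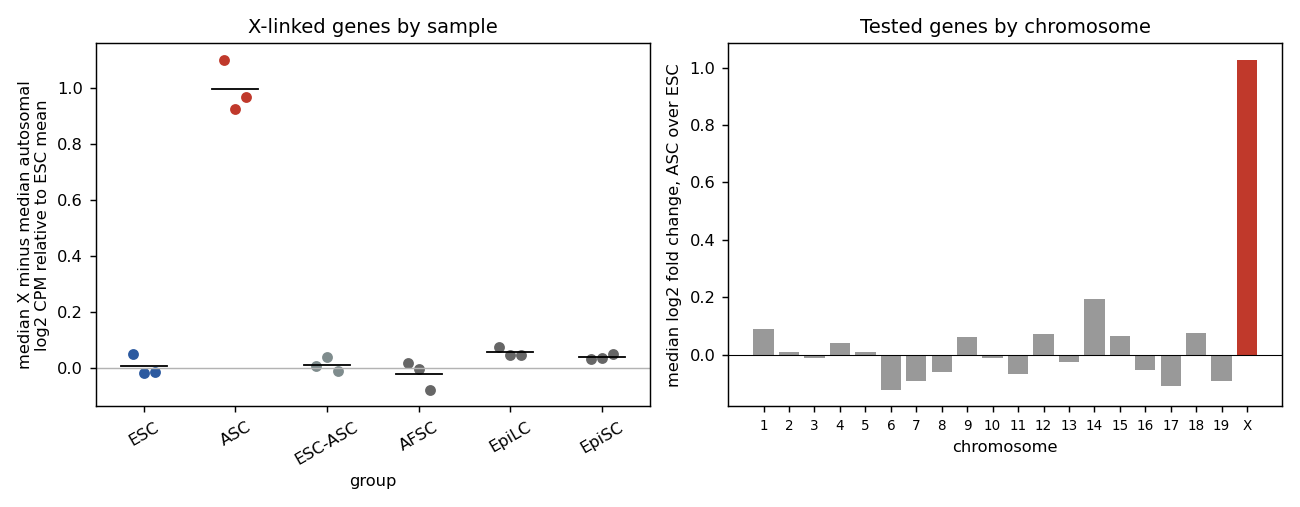
Left, median log2 abundance of X-linked genes minus that of autosomal genes, each relative to the ESC mean, with a point per sample and a line at the group mean for all 6 groups. Right, median log2 fold change, ASC over ESC, of the tested genes of each chromosome as bars from 0. The 3 ASC samples lie between 0.93 and 1.10, and no sample of another group exceeds 0.08.

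ERK pathway feedback inhibitors were among the lists with the largest share of called genes. Of 15 members, all tested, 9 were higher in ASCs and 0 lower, and the median log2 fold change of the list was 1.73. *Spry4*, a Sprouty protein that restrains signalling from receptor tyrosine kinases, had 129, 126 and 139 in ASCs and 0.429, 1.52 and 1.22 in ESCs (log2 fold change 6.78 ± 0.28, adjusted p = 3.44e-12). Its close relative *Spry1* had 32.3, 45.0 and 40.0 in ASCs and 4.74, 4.41 and 3.84 in ESCs (log2 fold change 3.16 ± 0.20, adjusted p = 7.35e-10). *Spry4* did not overlap between the groups, with ESC counts of 1, 6 and 5, and *Spry1* was named among called members without overlap. In ESC-ASCs *Spry4* stood at 64.8, 53.7 and 56.8.

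Dual-specificity phosphatases, which remove the activating phosphates of ERK and related kinases, did not all follow. *Dusp6*, the cytoplasmic ERK phosphatase, had 88.0, 106 and 113 in ASCs and 24.6, 16.2 and 15.6 in ESCs (log2 fold change 2.46 ± 0.16, adjusted p = 8.95e-10). *Dusp4*, a nuclear phosphatase, had 43.7, 46.2 and 42.8 in ASCs and 1.44, 1.27 and 1.22 in ESCs (log2 fold change 5.03 ± 0.50, adjusted p = 1.93e-07). *Dusp5* had 55.0, 90.3 and 82.9 in ASCs and 11.9, 9.41 and 12.6 in ESCs (log2 fold change 2.73 ± 0.21, adjusted p = 8.51e-09). *Dusp6* was higher in every ASC sample than in any ESC sample, and *Dusp4* and *Dusp5* were named among called members without overlap. The X-linked *Dusp9* had 1074, 1265 and 1217 in ASCs and 36.2, 46.6 and 52.5 in ESCs (log2 fold change 4.67 ± 0.27, adjusted p = 1.91e-10), beside a median of 1.03 over X-linked genes. *Dusp7* went the other way without being called, at 26.7, 30.6 and 34.97 in ASCs and 44.6, 59.0 and 57.5 in ESCs (log2 fold change -0.84 ± 0.16).

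ERK pathway transcriptional targets were called in the same direction: 10 of 20 tested members were higher in ASCs and 0 lower, with a median of 1.54 and with 1 further member below the filter. *Egr1*, an immediate early transcription factor, had 556, 550.0 and 619.6 in ASCs and 7.03, 7.79 and 5.72 in ESCs (log2 fold change 6.37 ± 0.16, adjusted p = 2.58e-15). *Fos*, a subunit of AP-1, had 161, 163 and 185 in ASCs and 4.19, 6.93 and 4.27 in ESCs (log2 fold change 4.98 ± 0.21, adjusted p = 3.44e-12), and its partner *Jun* had 260.2, 315 and 276 in ASCs and 12.3, 14.96 and 20.3 in ESCs (log2 fold change 4.10 ± 0.17, adjusted p = 3.44e-12). The lowest ASC sample of each lay far above the highest ESC sample. *Myc*, a growth regulator, had 37.8, 58.5 and 65.4 in ASCs and 8.54, 10.1 and 7.26 in ESCs (log2 fold change 2.61 ± 0.26, adjusted p = 1.57e-07). *Etv4*, an ETS factor, had 193, 251 and 259 in ASCs and 46.3, 52.5 and 47.4 in ESCs (log2 fold change 2.24 ± 0.15, adjusted p = 1.48e-09), whereas its relative *Etv5* overlapped, at 842, 954 and 1024 in ASCs and 655, 947 and 921 in ESCs (log2 fold change 0.14 ± 0.18, adjusted p = 0.563). Heat shock genes, which respond to handling of cells as immediate early genes do, were given the same test: 0 of 7 were called by edgeR, with *Hspa1a* at 29.1, 40.2 and 38.4 in ASCs and 21.2, 26.7 and 24.4 in ESCs (adjusted p = 0.0429, log2 fold change 0.54 ± 0.21), and their part in the immediate early genes was not tested.

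The early genes split in ESC-ASCs. *Egr1* was at 10.9, 9.70 and 11.4 there, little above the ESC samples, and *Myc*, at 7.13, 3.35 and 4.36, was below them. *Jun*, at 70.4, 81.2 and 79.0, and *Fos*, at 47.9, 56.9 and 60.7, lay between ESCs and ASCs. *Dusp4* was higher than in ASCs, at 140.4, 132 and 138.

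**Figure D2:**
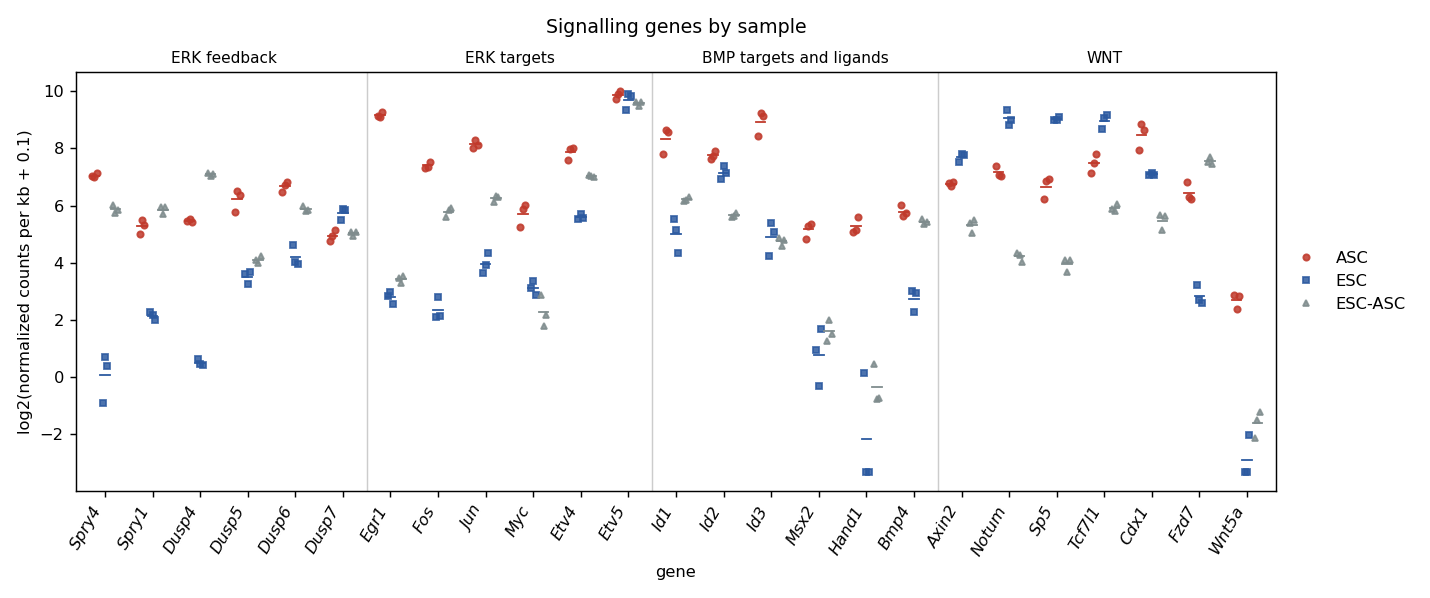
Levels of ERK, BMP and WNT pathway genes in each sample, as log2 of normalized counts per kb plus a pseudocount of 0.1, with a mark per sample and a line at the group mean of the log2 values for ASCs, ESCs and ESC-ASCs. *Spry4*, *Egr1* and *Id3* are higher in all 3 ASC samples, *Axin2*, *Notum*, *Sp5* and *Tcf7l1* are lower, and *Etv5* overlaps.

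Upstream of ERK the picture was mixed. Among 14 FGF ligands and receptors, all tested, 5 were higher and 2 lower, with a median of 0.43. *Fgf4*, the ligand that pluripotent cells make for themselves, was high in both groups, at 539, 469 and 439 in ASCs and 720.4, 603 and 680.5 in ESCs, and was not called (log2 fold change -0.49 ± 0.12). *Fgfr1*, the main receptor of these cells, overlapped at 115, 104 and 97.7 in ASCs and 135, 110.2 and 112 in ESCs. The ligand *Fgf15* had 16.6, 11.9 and 11.8 in ASCs and 1.93, 0.381 and 0.365 in ESCs (log2 fold change 4.11 ± 0.43, adjusted p = 3.61e-07), and *Fgfr3* rose from 4 counts over the ESC samples to 6.03, 5.80 and 2.45 normalized counts per kb in ASCs. *Fgfrl1*, a receptor-like protein without a kinase, was lower in ASCs, at 44.2, 45.5 and 40.2 in ASCs and 171, 216 and 229 in ESCs (log2 fold change -2.27 ± 0.16, adjusted p = 2.01e-09). *Fgf5*, which marks primed epiblast, was called higher on 5 counts over the ASC samples and 0 in ESCs, a call that was lost under DESeq2's test and without most single samples.

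BMP pathway genes were called in 1 direction. Of 38 members, 34 were tested, 18 were higher in ASCs and 0 lower, with a median of 1.19. The largest share was among ligands, 5 of 6, followed by targets, 8 of 13. *Id1*, a target that blocks differentiation factors of the bHLH class, had 222, 397 and 377 in ASCs and 45.8, 35.1 and 20.2 in ESCs (log2 fold change 3.33 ± 0.29, adjusted p = 2.86e-08). *Id3* had 348, 603 and 556 in ASCs and 18.7, 42.2 and 33.6 in ESCs (log2 fold change 3.92 ± 0.23, adjusted p = 2.25e-10). Both Id genes were lowest among ASCs in the first replicate and still above every ESC sample there. *Id2*, another gene of this class, was not called, at 199, 213 and 238 in ASCs and 121, 165 and 142 in ESCs (log2 fold change 0.57 ± 0.16).

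The targets *Msx2* and *Hand1* were near absent in ESCs. *Msx2*, a homeobox factor, had 28.6, 39.3 and 40.5 in ASCs and 1.80, 0.71 and 3.06 in ESCs (log2 fold change 4.21 ± 0.37, adjusted p = 4.42e-08). *Hand1*, a bHLH factor of extra-embryonic mesoderm and trophoblast, had 33.5, 35.4 and 47.8 in ASCs and 0.986, 0 and 0 in ESCs (log2 fold change 7.09 ± 0.69, adjusted p = 1.29e-07), with 1 count over the ESC samples. Neither overlapped between groups. Of the ligands, *Bmp4* itself had 64.5, 49.0 and 53.3 in ASCs and 7.97, 4.71 and 7.52 in ESCs (log2 fold change 3.04 ± 0.24, adjusted p = 1.27e-08). *Bmp2* went from 3 counts over the ESC samples to 6.98, 7.01 and 4.32 normalized counts per kb in ASCs. The secreted antagonist *Nog* reached 6.37, 7.35 and 5.82 in ASCs, from 2 counts over the ESC samples. Receptors moved less, with 2 of 8 receptors or transducers higher, and *Bmpr1a* overlapped at 137, 73.2 and 82.2 in ASCs and 89.0, 73.1 and 73.1 in ESCs.

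ESC-ASCs, also grown with BMP4, did not show these target levels. *Id3* was at 29.1, 24.0 and 27.8 and *Msx2* at 2.31, 3.87 and 2.76 there, and neither passed the test against ESCs (adjusted p = 0.29 and 0.232), while *Id1* was at 71.0, 72.4 and 78.9 (log2 fold change 1.17 ± 0.29, adjusted p = 0.00168 against ESCs) and *Bmp4* at 45.7, 40.9 and 42.9 (log2 fold change 2.68 ± 0.24, adjusted p = 2.19e-08).

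Genes of the *Nodal* and activin pathway were called in both directions. Of 31 members, 29 had a matching name in the files and 27 were tested, of which 6 were higher and 2 lower, with a median of 0.11. These shares, 22.2% and 7.41%, were near the 18.5% and 7.26% of all tested genes. *Nodal*, the ligand, overlapped, at 338, 249 and 228 in ASCs and 334, 221 and 263 in ESCs (log2 fold change -0.01 ± 0.20, adjusted p = 0.961). Its co-receptor *Tdgf1* was higher in ASCs, at 2745, 2087 and 1879 in ASCs and 723, 574 and 609 in ESCs (log2 fold change 1.80 ± 0.17, adjusted p = 1.27e-07). The feedback inhibitor *Lefty2* had 1091, 763 and 673 in ASCs and 512, 329 and 376 in ESCs (log2 fold change 1.04 ± 0.20, adjusted p = 0.000248), a call lost without ASC replicate 1 (0.81), ESC replicate 2 (0.92) or ESC replicate 3 (0.99). The related *Lefty1* was not called, at 272, 218 and 222 in ASCs and 200.5, 113 and 164 in ESCs (log2 fold change 0.57 ± 0.18).

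Among targets, mesendoderm factors went both ways. *Eomes*, a T-box factor, had 17.1, 23.5 and 24.0 in ASCs and 1.90, 2.52 and 2.68 in ESCs (log2 fold change 3.11 ± 0.26, adjusted p = 2.24e-08). *Gsc*, the organizer gene goosecoid, was lower in ASCs, at 14.5, 36.0 and 23.4 in ASCs and 208, 166 and 190.0 in ESCs (log2 fold change -2.94 ± 0.23, adjusted p = 7.53e-09). The co-receptor *Cfc1* fell from 15.1, 11.2 and 7.51 in ESCs to 1 count over the ASC samples. *Eomes* did not overlap between groups, and *Gsc* and *Cfc1* were named among called members without overlap.

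Both media hold CHIR99021, and the WNT pathway was split by role. Of 48 members, 43 were tested, with 18 higher and 5 lower in ASCs and a median of 0.72. Ligands were mostly higher, 8 of 9 tested with a median of 2.00. *Wnt5a*, a ligand of beta-catenin-independent signalling, had 7.17, 5.04 and 7.01 in ASCs and 0, 0 and 0.143 in ESCs (log2 fold change 6.47 ± 0.66, adjusted p = 2.62e-07), with 1 count over the ESC samples. *Wnt9a* was at 0 counts in all ESC samples, and at 5.19, 2.18 and 2.64 in ASCs, at least 8.38-fold higher when set against a floor of 3 counts over the ESC group. These are low levels. *Fzd7*, a receptor, had 114, 77.9 and 74.1 in ASCs and 9.12, 6.42 and 5.91 in ESCs (log2 fold change 3.65 ± 0.22, adjusted p = 2.77e-10). *Porcn*, which lipid-modifies WNT ligands and is X-linked, had 209, 199.7 and 213 in ASCs and 3.28, 4.66 and 2.97 in ESCs (log2 fold change 5.78 ± 0.26, adjusted p = 6.74e-12).

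Targets and feedback genes were divided: 1 of 6 targets was higher and 1 lower, and 3 of 12 inhibitors or feedback genes were higher and 2 lower. *Sp5*, a zinc finger target of beta-catenin, had 74.5, 115 and 121 in ASCs and 505, 515 and 545 in ESCs (log2 fold change -2.36 ± 0.19, adjusted p = 1.27e-08). *Notum*, a secreted enzyme that inactivates WNT ligands, had 168, 133 and 132 in ASCs and 653, 454 and 506 in ESCs (log2 fold change -1.91 ± 0.16, adjusted p = 2.21e-08). *Tcf7l1*, the repressive TCF of pluripotent cells, had 142, 180.2 and 222 in ASCs and 405, 534 and 576 in ESCs (log2 fold change -1.50 ± 0.17, adjusted p = 1.14e-06). All 3 were lower in every ASC sample. *Axin2*, the standard readout of the pathway, was also lower in each but fell just short of the fold threshold, at 110.3, 102 and 112 in ASCs and 185, 226 and 216 in ESCs (log2 fold change -0.97 ± 0.17, adjusted p = 9.78e-05). *Cdx1* went the other way, at 245.4, 460.4 and 404 in ASCs and 135, 142 and 135 in ESCs (log2 fold change 1.41 ± 0.20, adjusted p = 2.35e-05), as did *Lef1*, at 37.1, 50.3 and 52.7 in ASCs and 22.2, 19.5 and 18.9 in ESCs (log2 fold change 1.19 ± 0.16, adjusted p = 7.8e-06). In ESC-ASCs these readouts were lower still, with *Sp5* at 17.1, 12.6 and 16.8, *Notum* at 20.4, 19.07 and 16.3 and *Axin2* at 41.8, 32.9 and 44.6.

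LIF was in both media, and the LIF and STAT3 list of 16 genes, 15 tested, had 0 members higher and 2 lower, with a median of -0.34. The transducer *Stat3* overlapped, at 73.0, 79.3 and 89.0 in ASCs and 64.5, 115 and 119 in ESCs. The feedback inhibitor *Socs3* was lower without being called, at 191, 272 and 273 in ASCs and 386, 393 and 365 in ESCs (log2 fold change -0.66 ± 0.14). *Bcl3*, a target of STAT3, was called lower, at 122, 214 and 211 in ASCs and 371, 366 and 379 in ESCs (log2 fold change -1.05 ± 0.21, adjusted p = 0.000354), but fell short of the fold threshold without ASC replicate 1, at -0.83, which left 1 lower member in the list.

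Of the other signalling lists, Notch components were higher in 6 of 14 tested, among them *Notch3* at 148, 92.0 and 95.2 in ASCs and 26.2, 24.0 and 29.4 in ESCs (log2 fold change 2.05 ± 0.30, adjusted p = 1.77e-05) and *Jag2* at 131, 90.2 and 86.3 in ASCs and 25.7, 17.5 and 20.1 in ESCs (log2 fold change 2.28 ± 0.20, adjusted p = 5.11e-08). Hedgehog genes had 1 higher and 1 lower of 8. The retinoic acid list of 18 genes, 16 tested, had 6 higher and 0 lower. Of the called members, 3 act in synthesis, transport or breakdown and 3 are receptors or targets. *Crabp1*, a cytoplasmic binding protein, had 157, 225 and 185 in ASCs and 46.6, 40.6 and 27.8 in ESCs (log2 fold change 2.31 ± 0.26, adjusted p = 7.41e-07). *Aldh1a2*, the enzyme that makes the ligand, was not called (log2 fold change -0.78 ± 0.26).

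**Figure D3:**
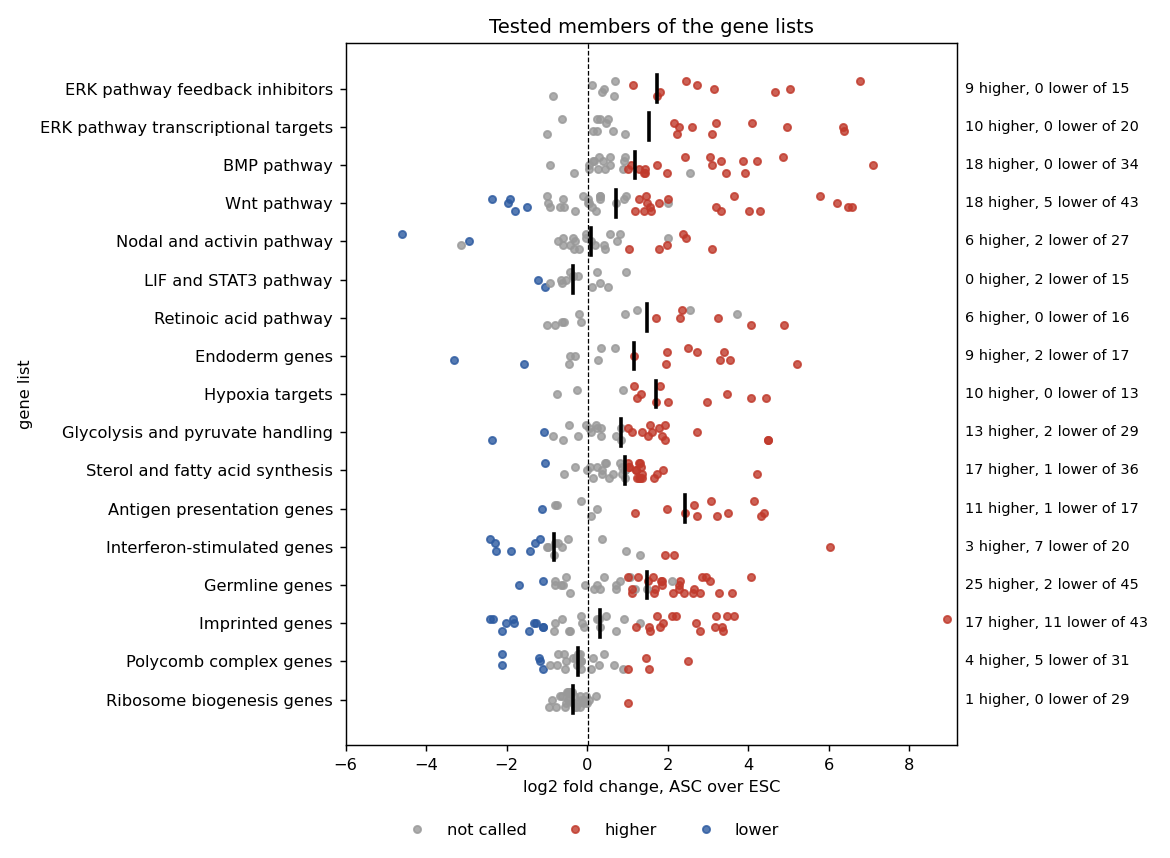
Log2 fold change, ASC over ESC, of every tested member of 17 gene lists, a point per gene, coloured by call, with a black bar at the list's median and a dashed line at the median of all tested genes. Numbers at the right are called members of those tested. The ERK, hypoxia and BMP lists have no member called lower, whereas the imprinted list has 17 higher and 11 lower.

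Hypoxia targets had a larger share of called members than any list described so far. HIF is a transcription factor pair that is stabilized at low oxygen and binds the letters ACGTG or GCGTG at genes of glycolysis and oxygen supply. Of 13 targets listed, all tested, 10 were higher in ASCs and 0 lower, with a median of 1.70. *Bnip3*, which drives removal of mitochondria, had 715, 911 and 844 in ASCs and 67.8, 75.5 and 73.9 in ESCs (log2 fold change 3.48 ± 0.13, adjusted p = 7.19e-13). *Egln3*, an oxygen sensor that marks HIF for degradation, had 143, 173 and 167 in ASCs and 6.66, 9.62 and 10.9 in ESCs (log2 fold change 4.08 ± 0.24, adjusted p = 2.77e-10). *P4ha2*, a collagen prolyl hydroxylase subunit, had 90.6, 70.2 and 52.2 in ASCs and 3.16, 2.80 and 3.58 in ESCs (log2 fold change 4.45 ± 0.26, adjusted p = 2.36e-10). *Vegfa*, the angiogenic ligand, had 251, 225 and 185 in ASCs and 98.1, 75.4 and 84.5 in ESCs (log2 fold change 1.34 ± 0.18, adjusted p = 5.97e-06). The groups did not overlap at any of the 10 called genes, as was the case at 4247 of the 4356 genes called in all. In ESC-ASCs 10 of the 13 were called higher against ESCs as well, and *Bnip3* stood at 1656, 1566 and 1718 and *Egln3* at 148, 149.6 and 161. Oxygen during culture is not given in the sources used here for either group.

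The stretches below are from RefSeq promoters of GRCm38.p6 and are shown because these genes, among the largest differences of the hypoxia list and, for *Pdk1*, of the glycolysis list, hold the motif. Capitals mark ACGTG or GCGTG on either strand. Of 12 matched promoters of the list, 8 of 9 called higher and 2 of 3 others held a match in the 250 bases before the start, against 54.9% of the 11848 promoters of tested genes. All stretches lie upstream of the gene on its own strand.
Bnip3, chr7:138909507-138909653, minus strand: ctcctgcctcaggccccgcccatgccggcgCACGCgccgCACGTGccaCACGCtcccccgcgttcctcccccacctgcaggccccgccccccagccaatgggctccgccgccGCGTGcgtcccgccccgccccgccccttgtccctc
Egln3, chr12:54204069-54204124, minus strand: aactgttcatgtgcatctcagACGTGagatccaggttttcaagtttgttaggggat
P4ha2, chr11:54100787-54100889, plus strand: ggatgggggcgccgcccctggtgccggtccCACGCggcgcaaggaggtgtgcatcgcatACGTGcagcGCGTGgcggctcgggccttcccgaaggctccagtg
Egln1, chr8:124949288-124949410, minus strand: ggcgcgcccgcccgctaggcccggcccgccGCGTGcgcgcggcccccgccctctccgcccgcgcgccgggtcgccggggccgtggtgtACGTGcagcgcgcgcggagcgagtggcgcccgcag
Pdk1, chr2:71873116-71873180, plus strand: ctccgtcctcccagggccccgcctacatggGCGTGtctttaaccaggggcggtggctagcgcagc
A match says only that these letters occur in the window. *Bnip3* held 5 matches, 2 of them the strands of 1 palindrome, *P4ha2* held 3, *Egln1* 2, and *Egln3* and *Pdk1* 1 each, while *Vegfa* held 0.

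Glycolysis genes that were called were mostly higher in ASCs as well. Of 29 members, all tested, 13 were higher and 2 lower, with a median of 0.83. Both glucose transporters were higher: *Slc2a1* had 2904, 2363 and 2118 in ASCs and 787, 594 and 617 in ESCs (log2 fold change 1.87 ± 0.19, adjusted p = 1.83e-07), and *Slc2a3* had 5894, 3432 and 3071 in ASCs and 1484, 1210.4 and 1311 in ESCs (log2 fold change 1.61 ± 0.24, adjusted p = 2.5e-05). The first ASC sample was the highest for each. *Pfkp*, a phosphofructokinase, had 726, 700.3 and 692 in ASCs and 169.8, 189 and 189 in ESCs (log2 fold change 1.93 ± 0.15, adjusted p = 8.51e-09). *Ldha*, which turns pyruvate into lactate, had 4648, 7229 and 7110.0 in ASCs and 1072, 2059 and 1708 in ESCs (log2 fold change 1.95 ± 0.29, adjusted p = 2.66e-05) and was among the genes with the highest levels that were called.

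Among the 11 genes of pyruvate and lactate handling, 5 were higher and 1 lower, with a median of 0.10, below the 0.77 of the 16 glycolytic enzymes. *Pdk1*, the kinase that shuts pyruvate out of mitochondria, had 161, 186 and 181 in ASCs and 7.34, 9.13 and 6.45 in ESCs (log2 fold change 4.50 ± 0.17, adjusted p = 9.73e-13). *Slc16a3*, a lactate exporter, had 508, 421 and 344 in ASCs and 20.7, 17.7 and 17.2 in ESCs (log2 fold change 4.50 ± 0.19, adjusted p = 3.44e-12). *Ldhb*, the subunit that favours lactate use, was lower in ASCs, at 526, 803 and 679 in ASCs and 3022, 3629 and 3511 in ESCs (log2 fold change -2.36 ± 0.17, adjusted p = 2.51e-09), while ESC-ASCs were at 4916, 4428 and 4832. *Hk1* was lower, at 68.04, 87.4 and 78.8 in ASCs and 127, 178 and 178 in ESCs (log2 fold change -1.07 ± 0.15, adjusted p = 1.02e-05), but reached only -0.98 without ASC replicate 1 or ESC replicate 2 and -0.99 without ESC replicate 3, and its relative *Hk2* was not called, at 553, 631 and 686 in ASCs and 403, 561 and 589 in ESCs. *Pgk1*, at 8672, 13011 and 11916 in ASCs and 1056, 2070.4 and 1859 in ESCs (log2 fold change 2.72 ± 0.31, adjusted p = 1.04e-06), is X-linked and has an intronless copy whose fragments can be shared.

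**Figure D4:**
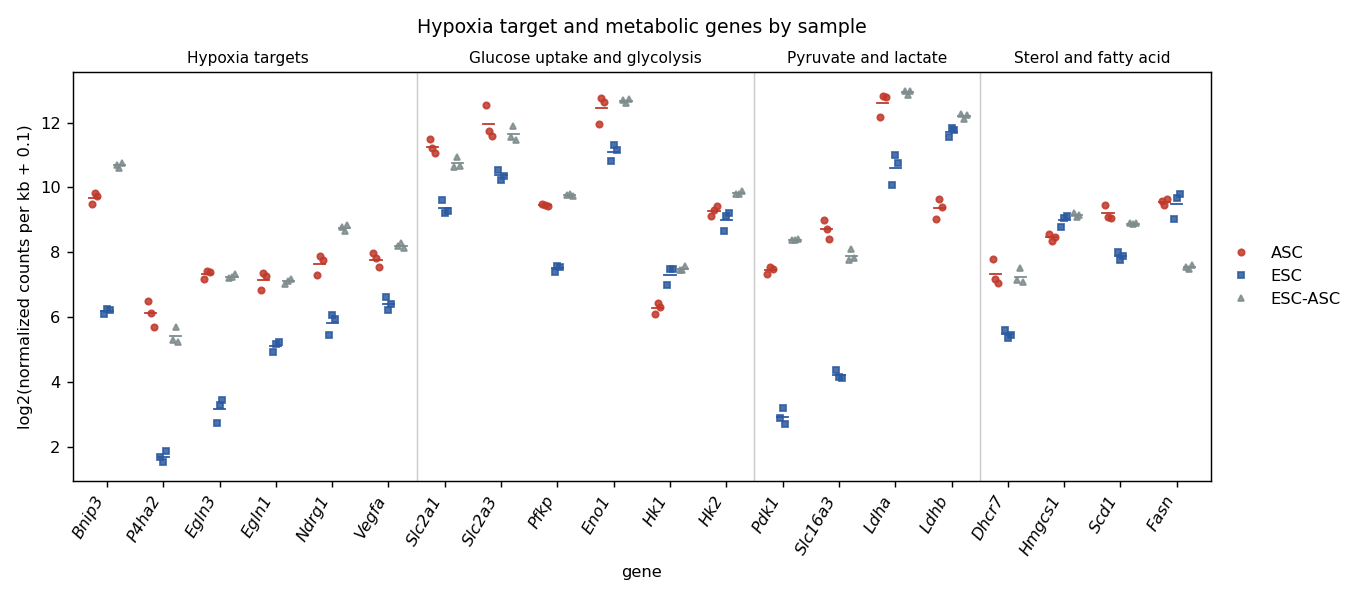
Levels of hypoxia target and metabolic genes in each sample, as log2 of normalized counts per kb plus a pseudocount of 0.1, with a mark per sample and a line at the group mean of the log2 values for ASCs, ESCs and ESC-ASCs. *Bnip3*, *P4ha2*, *Egln3*, *Pdk1* and *Slc16a3* differ most between ASCs and ESCs, and *Ldhb* is lower in ASCs than in both other groups.

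Most respiratory genes were not called. Of 83 nuclear-encoded subunits, 80 were tested, with 2 higher and 9 lower and a median of -0.41. The 2 higher genes were *Cox4i2*, an isoform of complex IV, and *Atp5s*. Mitochondrially encoded mRNAs had log2 fold changes from -1.96 to -0.97, all 13 below 0, with a median of -1.39, and 1 of them was called, *mt-Cytb*, at 15890.1, 9054 and 8216 in ASCs and 64014, 20337 and 21117 in ESCs (log2 fold change -1.68 ± 0.66, adjusted p = 0.0422); the first ESC sample, at 64014, is the one with the high mitochondrial share, and without it the log2 fold change was -0.94 and the call was lost, as it was without any 1 ASC sample. Ribosomal protein genes had 1 higher and 7 lower of 87 tested, with a median of -0.57, and ribosome biogenesis genes had 1 higher, the X-linked *Dkc1*, and 0 lower of 29. The call of *Dkc1* was lost without ASC replicate 1 (0.97) or ESC replicate 1 (0.79).

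Sterol and fatty acid genes that were called were nearly all higher in ASCs. Of 36 members, all tested, 17 were higher and 1 lower, with a median of 0.94. *Dhcr7*, the last enzyme of cholesterol synthesis, had 221, 145 and 133 in ASCs and 48.7, 41.0 and 43.7 in ESCs (log2 fold change 1.89 ± 0.20, adjusted p = 4.34e-07). *Scd1*, a fatty acid desaturase, had 705, 543 and 529.8 in ASCs and 260.2, 217 and 235 in ESCs (log2 fold change 1.30 ± 0.16, adjusted p = 2.17e-06). The first enzymes did not follow: *Hmgcs1* was lower without being called, at 375, 325 and 358 in ASCs and 443, 536 and 560.0 in ESCs (log2 fold change -0.56 ± 0.14), and *Fasn* overlapped, at 760.1, 699 and 795 in ASCs and 520.2, 817 and 885 in ESCs. Without both first replicates, 11 members were called higher. Of serine and one-carbon genes, 3 of 20 were higher, led by *Phgdh*, the first enzyme of serine synthesis, at 719.6, 1004 and 934 in ASCs and 234, 301 and 298 in ESCs (log2 fold change 1.65 ± 0.16, adjusted p = 9.87e-08), and threonine dehydrogenase, *Tdh*, was not called, at 1155, 1448 and 1479.8 in ASCs and 2010.3, 2541 and 2516 in ESCs (log2 fold change -0.82 ± 0.15). Among 24 ATF4 response genes, 10 were higher and 1 lower. *Atf3*, a stress-induced factor, was among the higher ones, at 55.1, 61.7 and 64.2 in ASCs and 7.31, 5.40 and 4.66 in ESCs (log2 fold change 3.40 ± 0.21, adjusted p = 6.02e-10), but *Atf4*, at 1106, 1529 and 1396 in ASCs and 2253, 1617 and 1567 in ESCs, and *Ddit3*, at 98.3, 119 and 93.5 in ASCs and 129.9, 99.9 and 102 in ESCs, were not called.

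Antigen presentation genes of the class I pathway were mostly called higher in ASCs. Of 18 members, 17 were tested, with 11 higher and 1 lower and a median of 2.42. *H2-K1*, a class I heavy chain, had 431, 330.5 and 296 in ASCs and 23.4, 18.3 and 18.4 in ESCs (log2 fold change 4.13 ± 0.21, adjusted p = 3.34e-11). *H2-D1* had 144, 122 and 97.4 in ASCs and 26.7, 15.8 and 16.0 in ESCs (log2 fold change 2.66 ± 0.21, adjusted p = 1.2e-08). These near-identical genes share fragments, so the split between them is uncertain. *Tap1*, a subunit of the peptide transporter, had 24.4, 21.4 and 13.4 in ASCs and 3.24, 1.70 and 2.24 in ESCs (log2 fold change 3.08 ± 0.31, adjusted p = 1.83e-07). *Psmb9*, an immunoproteasome subunit, had 4.72, 6.53 and 6.30 in ASCs and 0.538, 0.318 and 0 in ESCs (log2 fold change 4.40 ± 0.56, adjusted p = 3.57e-06), with 2 counts over the ESC samples.

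The class I light chain *B2m* was not called and overlapped, at 166, 134 and 107 in ASCs and 204, 85.3 and 101 in ESCs (log2 fold change 0.09 ± 0.31, adjusted p = 0.828). Interferon-stimulated genes were more often lower: of 25, 20 were tested, with 3 higher and 7 lower, and a median of -0.81. The 7 lower included *Ifitm1*, an antiviral membrane protein, at 379, 607 and 559 in ASCs and 2390.1, 2537 and 2384 in ESCs (log2 fold change -2.26 ± 0.17, adjusted p = 5.59e-09). *Bst2*, another, was higher, at 453, 597 and 497 in ASCs and 177, 121 and 109.9 in ESCs (log2 fold change 1.93 ± 0.17, adjusted p = 4.09e-08).

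Imprinted genes, expressed from 1 parental copy, moved in both directions. Of 47 members, 45 had a matching name in the files and 43 were tested, with 17 higher and 11 lower and a median of 0.33. Among maternally expressed genes 8 of 15 were higher, and among paternally expressed genes 9 of 28. *Igf2*, a fetal growth factor and the listed gene with the largest fold change, had 551, 498 and 617 in ASCs and 2.41, 0.61 and 0.78 in ESCs (log2 fold change 8.94 ± 0.42, adjusted p = 1.3e-11). ESC-ASCs stayed at 1.15, 1.45 and 0.791. The overlapping antisense transcript of *Igf2* shares its fragments because counting ignored strand.

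*Phlda2*, a placental growth restrictor, had 159, 215 and 188 in ASCs and 12.3, 15.6 and 14.9 in ESCs (log2 fold change 3.66 ± 0.23, adjusted p = 7.24e-10), and *Grb10*, an inhibitor of insulin signalling, had 174, 164 and 189 in ASCs and 12.1, 18.2 and 19.5 in ESCs (log2 fold change 3.36 ± 0.20, adjusted p = 2.77e-10). These were also higher in ESC-ASCs, at 202, 199.6 and 211 and 125, 116 and 129.9. *Peg10*, a paternally expressed gene, had 775, 535 and 645 in ASCs and 88.6, 87.5 and 98.6 in ESCs (log2 fold change 2.81 ± 0.19, adjusted p = 1.78e-09), but was at 59.4, 55.8 and 66.6 in ESC-ASCs. Lower genes included *Dio3*, at 9.04, 7.16 and 8.65 in ASCs and 52.4, 41.3 and 32.4 in ESCs (log2 fold change -2.34 ± 0.28, adjusted p = 1.58e-06), and *Mest*, at 31.2, 23.2 and 26.1 in ASCs and 74.4, 57.5 and 65.6 in ESCs (log2 fold change -1.31 ± 0.14, adjusted p = 5.53e-07). *Snrpn* was not called and overlapped, at 237, 321 and 336 in ASCs and 295, 319 and 337 in ESCs. Which parental copy was read cannot be told from these counts.

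**Figure D5:**
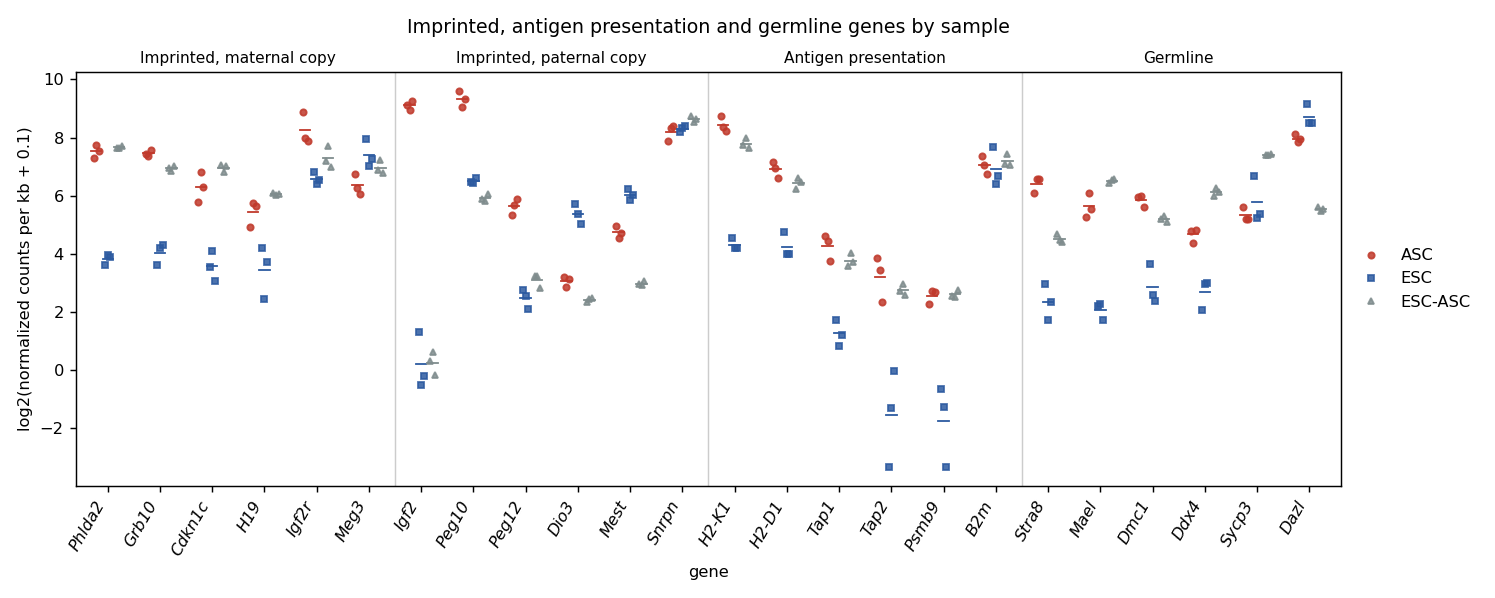
Levels of imprinted, antigen presentation and germline genes in each sample, as log2 of normalized counts per kb plus a pseudocount of 0.1, with a mark per sample and a line at the group mean of the log2 values for ASCs, ESCs and ESC-ASCs. *Igf2* is high in ASCs and between 0.61 and 2.41 normalized counts per kb in ESCs and ESC-ASCs, whereas *H2-K1*, *Tap1* and *Mael* are higher in both ASCs and ESC-ASCs.

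Germline genes that were called were nearly all higher in ASCs. Of 52 members, 51 had a matching name and 45 were tested, with 25 higher and 2 lower and a median of 1.49. On autosomes alone, 23 of 42 were higher. *Stra8*, the retinoic-acid-responsive gatekeeper of meiosis, had 68.8, 94.5 and 96.1 in ASCs and 7.64, 3.23 and 4.95 in ESCs (log2 fold change 4.08 ± 0.31, adjusted p = 6.19e-09). *Mael*, a piRNA pathway protein, had 38.0, 68.3 and 46.8 in ASCs and 4.54, 4.70 and 3.22 in ESCs (log2 fold change 3.60 ± 0.31, adjusted p = 6.83e-08). *Dmc1*, the meiotic recombinase, had 61.5, 63.0 and 49.0 in ASCs and 12.6, 5.84 and 5.09 in ESCs (log2 fold change 2.97 ± 0.29, adjusted p = 4.09e-07). The groups did not overlap at *Stra8* or *Mael*, and *Dmc1* was named among called members without overlap. Not all germline genes rose: *Sycp3*, a component of the meiotic chromosome axis, overlapped at 48.7, 37.0 and 36.4 in ASCs and 103, 37.8 and 41.5 in ESCs, and the RNA-binding protein *Dazl* was lower without being called, at 275, 230.1 and 244.9 in ASCs and 576, 361 and 359.8 in ESCs (log2 fold change -0.80 ± 0.17).

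CACGTG, the E-box bound by MAX and MGA, which repress germline genes in ESCs, was in the 250 bases before the start of 8 of 22 matched promoters of the germline genes called higher, 6 of 16 others and 8.34% of promoters of tested genes. Stretches are shown for 3 of those called higher, with the motif in capitals.
Mael, chr1:166238932-166238994, minus strand: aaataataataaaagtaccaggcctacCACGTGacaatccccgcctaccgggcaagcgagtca
Slc25a31, chr3:40708748-40708813, plus strand: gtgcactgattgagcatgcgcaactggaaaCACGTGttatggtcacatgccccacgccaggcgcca
Taf7l, chrX:134476504-134476569, minus strand: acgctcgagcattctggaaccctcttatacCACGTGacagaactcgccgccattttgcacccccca
The CArG box was in 0 of 6 matched promoters of ERK targets called higher, 1 of 6 others and 1.17% of promoters of tested genes. GGCGCC was in 4 of 11 matched promoters of BMP genes called higher, 5 of 15 others and 16.3% of promoters of tested genes.

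In the DNA methylation machinery, 5 of 21 tested genes were higher and 1 lower. These are 23.8% and 4.76%, beside 18.5% and 7.26% of all tested genes. *Dnmt3a*, a de novo methyltransferase, had 38.6, 37.0 and 38.9 in ASCs and 5.92, 7.76 and 7.71 in ESCs (log2 fold change 2.38 ± 0.17, adjusted p = 3.02e-09), and *Dnmt3l*, its cofactor, had 603, 963 and 901 in ASCs and 103, 180.3 and 169 in ESCs (log2 fold change 2.41 ± 0.19, adjusted p = 1.28e-08). The other de novo enzyme, *Dnmt3b*, overlapped at 136, 147 and 168 in ASCs and 157, 181 and 189 in ESCs. *Tet3*, a demethylation enzyme, had 14.5, 14.4 and 13.3 in ASCs and 2.24, 2.23 and 3.14 in ESCs (log2 fold change 2.43 ± 0.23, adjusted p = 7.78e-08), while *Tet1* and *Tet2* were not called. *Dppa3*, a maternal factor that guards methylation in the early embryo, was lower in ASCs, at 189, 296 and 271 in ASCs and 3580.3, 1992 and 1743 in ESCs (log2 fold change -3.29 ± 0.28, adjusted p = 2.92e-08). Polycomb genes had 4 higher and 5 lower of 31, or 12.9% and 16.1%. *Pcgf1*, a PRC1 subunit, was lower, at 27.5, 42.2 and 44.6 in ASCs and 224, 144 and 122 in ESCs (log2 fold change -2.10 ± 0.26, adjusted p = 2.17e-06), and its relative *Pcgf5* higher, at 99.5, 105 and 109 in ASCs and 17.8, 19.6 and 16.1 in ESCs (log2 fold change 2.52 ± 0.22, adjusted p = 2.85e-08); the enzymes *Ezh2* and *Rnf2* were not called.

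Genes were called in the lists of each germ layer, where 18.5% of all tested genes were called higher and 7.26% lower. Of 22 streak and mesoderm factors, 14 were tested, with 6 higher and 1 lower, and *Hand1* and *Eomes*, named above, had the largest differences among those called higher. Of 22 endoderm genes, 17 were tested, with 9 higher and 2 lower. *Amn*, a gut and visceral endoderm membrane protein, reached 17.9, 27.7 and 22.1 in ASCs from 2 counts over the ESC samples. *Hnf4a*, a visceral endoderm factor, had 11.2, 7.96 and 11.4 in ASCs and 0.408, 1.69 and 0.693 in ESCs (log2 fold change 3.29 ± 0.41, adjusted p = 1.16e-05). *Gata4* was not called, at 7.46, 8.25 and 8.71 in ASCs and 6.05, 4.47 and 4.57 in ESCs, and *Sox17*, an endoderm factor, was called at only 2.49, 3.05 and 2.76 in ASCs and 0, 0.976 and 0.234 in ESCs (log2 fold change 2.50 ± 0.58, adjusted p = 0.00148). In bulk samples, a few cells of a type and a little RNA in every cell cannot be told apart.

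Of 17 trophoblast genes and simple keratins, 12 were tested, with 7 higher and 1 lower, and 3 of the 4 keratins were higher. *Krt8* had 292, 304 and 318 in ASCs and 37.1, 28.4 and 22.9 in ESCs (log2 fold change 3.39 ± 0.17, adjusted p = 2.64e-11), and its partner *Krt18* had 215, 266 and 295 in ASCs and 15.5, 12.5 and 13.5 in ESCs (log2 fold change 4.21 ± 0.21, adjusted p = 3.69e-11). *Krt19* had 133, 171 and 149.6 in ASCs and 12.7, 7.53 and 6.01 in ESCs (log2 fold change 4.17 ± 0.29, adjusted p = 2.38e-09). Trophoblast regulators did not move together: *Cdx2* was lower without being called, at 41.0, 55.1 and 57.2 in ASCs and 71.4, 112 and 102 in ESCs (log2 fold change -0.93 ± 0.26), *Gata3* had 11.1, 15.9 and 13.8 in ASCs and 5.94, 4.39 and 4.77 in ESCs (log2 fold change 1.43 ± 0.36, adjusted p = 0.00312), and *Elf5* and *Tpbpa* held 3 counts or fewer in each group. Of 20 neural genes, 14 were tested, with 5 higher and 2 lower, or 3 higher and 2 lower of the 11 on autosomes. *Tubb3*, a neuronal tubulin, was lower in ASCs, at 41.6, 89.5 and 91.6 in ASCs and 559, 602 and 578 in ESCs (log2 fold change -2.99 ± 0.20, adjusted p = 1.71e-09). *Sox3*, an X-linked Sox factor, had 51.7, 96.0 and 84.99 in ASCs and 6.67, 7.89 and 5.40 in ESCs (log2 fold change 3.51 ± 0.24, adjusted p = 1.75e-09), and *Pax6* and *Neurog2* were close to 0 in both groups. Summed marker levels were 18.2 to 24.8 in ASCs and 11.6 to 17.5 in ESCs for primitive endoderm, 57.3 to 72.8 and 78.7 to 118 for trophoblast, and at most 5.06 and 3.26 for neural cells. The part of such cells in the lineage lists was not tested.

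Adhesion genes gave a mixed result. *Cdh1*, E-cadherin, was not called, at 955, 584 and 543 in ASCs and 1250.1, 789 and 844 in ESCs (adjusted p = 0.0812, log2 fold change -0.49 ± 0.23). *Cdh2*, N-cadherin, was higher in ASCs but low, at 16.6, 8.24 and 11.8 in ASCs and 4.15, 2.45 and 2.63 in ESCs (log2 fold change 2.02 ± 0.32, adjusted p = 4.43e-05). *Cdh3*, P-cadherin, was lower, at 58.6, 45.0 and 35.5 in ASCs and 169, 123.4 and 136 in ESCs (log2 fold change -1.64 ± 0.22, adjusted p = 8.09e-06), as was *Vim*, the mesenchymal filament, at 188, 272 and 289 in ASCs and 811, 734 and 709 in ESCs (log2 fold change -1.61 ± 0.17, adjusted p = 3.01e-07). *Cldn7*, a tight junction protein, had 81.4, 86.4 and 67.6 in ASCs and 8.09, 7.77 and 6.30 in ESCs (log2 fold change 3.40 ± 0.26, adjusted p = 6e-09).

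Of 26 basement membrane and matrix genes, 25 were tested, with 11 higher and 3 lower. *Col4a1*, the main collagen of basement membranes, had 72.7, 37.4 and 35.7 in ASCs and 6.59, 7.02 and 7.92 in ESCs (log2 fold change 2.72 ± 0.34, adjusted p = 3.12e-06), and its partner *Col4a2* had 62.4, 32.6 and 29.99 in ASCs and 4.46, 4.04 and 6.91 in ESCs (log2 fold change 2.97 ± 0.42, adjusted p = 1.58e-05). *Lamb1* was lower, at 77.0, 44.6 and 41.9 in ASCs and 196, 116 and 126 in ESCs (log2 fold change -1.43 ± 0.24, adjusted p = 9.16e-05). *Col3a1* and *Dcn*, fibroblast genes, had traces in ESCs: *Col3a1* was at 0.66, 0.317 and 0.782 in ASCs and 17.9, 6.05 and 9.77 in ESCs and *Dcn* at 0.518, 0 and 0 in ASCs and 25.5, 5.58 and 12.3 in ESCs. Most fibroblast genes went the other way: of 12 listed, 8 were tested, with 5 higher in ASCs and 3 lower and a median of 1.45, and the higher ones were *Tagln* (3.01 on the log2 scale), *Thy1* (2.40), *Acta2* (2.35), *Loxl1* (1.57) and *Col1a1* (1.34). Of 9 markers that define these cells, 5 were tested, with 2 higher and 3 lower. Their summed level was 76.1 to 118 in ASCs and 41.9 to 102 in ESCs, 0 of the 9 were at 0 in every sample of either group, and *Prrx1*, a mesenchymal factor, had at most 6 counts in a sample. The part of fibroblasts in the matrix genes was not tested.

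Several families were described by counts, to be read beside the 18.5% of all tested genes called higher and the 7.26% called lower. Of 34 Rhox genes, 18 were tested and 9 were higher, and of 22 Mage genes 14 were tested and 10 higher, but all 18 tested Rhox genes and 13 of the 14 tested Mage genes are X-linked, where 48.2% of tested genes were called higher. Both families hold near-identical copies that share fragments. Of 408 zinc finger genes chosen by symbol, 381 were tested, with 26 higher and 48 lower and a median of -0.32. Of 391 solute carrier genes, 270 were tested, with 90 higher and 22 lower. Semaphorins and plexins, which guide cells and axons, had 14 higher and 0 lower of 26 tested, 2 of them X-linked, led by *Sema3e*, at 11.04, 5.70 and 5.20 in ASCs and 0.212, 0.125 and 0.12 in ESCs (log2 fold change 5.54 ± 0.50, adjusted p = 5.11e-08), with 3 counts over the ESC samples. Integrins had 8 higher and 0 lower of 20 tested. Protocadherins had 18 higher and 0 lower of 45 tested, but the clustered ones share exons and so fragments. Glutathione transferases had 2 higher and 5 lower of 19 tested, with *Gsto1* at 106, 119.8 and 129 in ASCs and 812, 905 and 874 in ESCs (log2 fold change -2.89 ± 0.14, adjusted p = 1.92e-11).

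Cell cycle and survival genes were called about as often as all genes. Of 19 G1 genes, 2 were higher and 2 lower, where 25.8% of all tested genes were called. *Cdkn1a*, the p21 inhibitor, was lower in ASCs, at 442, 535 and 541 in ASCs and 942, 1339 and 1392 in ESCs (log2 fold change -1.30 ± 0.18, adjusted p = 7.33e-06), as was *Cdkn1b*, p27, at 31.1, 34.0 and 34.2 in ASCs and 62.7, 84.4 and 73.5 in ESCs (log2 fold change -1.18 ± 0.14, adjusted p = 2.02e-06). *Ccnd2* was higher, at 14.4, 11.3 and 13.6 in ASCs and 2.09, 1.48 and 2.96 in ESCs (log2 fold change 2.55 ± 0.25, adjusted p = 1.35e-07), while *Ccnd1* missed the fold threshold, at 256, 277 and 319 in ASCs and 498, 603 and 570.4 in ESCs (log2 fold change -0.99 ± 0.13). Of 27 BCL2 family genes and p53 targets, 26 were tested, with 5 higher and 2 lower. *Pmaip1*, the pro-apoptotic NOXA, had 85.2, 90.7 and 97.0 in ASCs and 34.97, 26.4 and 29.9 in ESCs (log2 fold change 1.57 ± 0.14, adjusted p = 5.6e-08), and *Trp53* itself was not called, at 363, 535 and 537 in ASCs and 799.7, 923 and 869.5 in ESCs (log2 fold change -0.88 ± 0.15). The RNA-binding protein *Lin28b*, which blocks let-7 miRNAs, was higher, at 34.2, 14.99 and 11.2 in ASCs and 0.729, 0.862 and 1.03 in ESCs (log2 fold change 4.43 ± 0.46, adjusted p = 3.31e-07), and so was *Lin28a*, at 311, 332 and 399 in ASCs and 71.9, 110.1 and 98.0 in ESCs (log2 fold change 1.86 ± 0.16, adjusted p = 3.5e-08).

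Over all genes, the largest falls were at *Khdc1c* and *Khdc1a*, KH-domain genes with closely related sequence that can share fragments. *Khdc1c* was at 157, 161 and 144 in ESCs and at 0 counts in every ASC sample, at least 280-fold lower against a floor of 3 counts over the ASC group. *Csf3r*, the G-CSF receptor, went from 82.4, 42.6 and 52.5 in ESCs to 4 counts over the ASC samples. *Cyp1a1*, the detoxifying enzyme induced by the aryl hydrocarbon receptor, had 3.71, 1.98 and 1.26 in ASCs and 101, 73.8 and 92.0 in ESCs (log2 fold change -5.25 ± 0.38, adjusted p = 3.02e-09).

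The largest rises included *Matn3*, a cartilage matrix protein, at 0 counts in ESCs and 35.1, 18.9 and 20.4 in ASCs, at least 56.4-fold higher against the same kind of floor. *Nxph4*, a neurexophilin, had 61.8, 58.3 and 54.4 in ASCs and 0, 0.695 and 0 in ESCs, with 1 count over the ESC samples. *Baiap2l1*, a membrane-bending adaptor, had 386, 460.3 and 457 in ASCs and 0.585, 3.11 and 3.98 in ESCs (log2 fold change 7.21 ± 0.26, adjusted p = 7.19e-13), with ESC-ASCs at 345, 330.2 and 340.1. Genes of the early embryo also appeared in this group: *Tmem92* was at 0 counts in ESCs and 61.7, 41.8 and 44.6 in ASCs, and at 3.47, 2.46 and 2.30 in ESC-ASCs. *Tcstv3* and *Usp17ld*, members of multicopy families that share fragments, were at 0 counts in ESCs, at least 28.0-fold and 54.2-fold higher in ASCs. Of the called genes with the highest levels, *Ckb*, brain-type creatine kinase, was lower at 3360.2, 5269 and 4798 in ASCs and 12504, 13231 and 12960.0 in ESCs (log2 fold change -1.55 ± 0.15, adjusted p = 1.51e-07).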

How the data were processed

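RNA-seq libraries (directional, polyA-selected, paired-end) were aligned by the authors to GRCm38 with TopHat2, and the deposited counts were made per the file headers with featureCounts 1.5.0-p1 on Ensembl release 86, without strand and with multi-mapping and multi-overlapping fragments kept. Overlapping, antisense and near-identical genes therefore share counts. The authors' raw counts were used as deposited.

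Tests covered the 16901 of 35773 genes that reached 10 counts in 3 or more of the 18 samples. All samples entered 1 edgeR 4.0.16 quasi-likelihood fit (R 4.3.3, TMM, robust) with no covariate and Benjamini-Hochberg adjustment, and contrasts were taken between groups. For levels, size factors of DESeq2 1.42.0 and exonic lengths in kb were divided out of the counts. On simulated counts with 200 changed genes for this comparison of 16901 genes, 98.1% of log2 changes of 2 were recovered and 2.48% of calls were false. The changed genes were drawn only from better counted genes of the ESC samples, and far fewer genes changed than were called in the data. The simulation held no shift of X-linked genes and no replicate that stood apart. Its rates do not carry over to genes with few ESC counts. The lists, members and families were chosen with earlier results of these data known. Named genes were members marked as core in the lists whatever their values, up to 6 further called members of each list without overlap, by size, and over all genes the largest changes and the highest levels among called genes. Genes of the Hoxa, Zscan4 and PRAME families and pluripotency factors were left out, except as markers. *Atp5s* was named after its values were seen. A few genes that the rule named are not reported here. The labels do not say whether replicates are separate cultures, whereas a figure legend of the paper calls them biological replicates. P-values measure the spread within groups over all 18 samples, which may be technical. Chi-square per degree of freedom, near 1 for counting error alone, was 1.62 between ESC replicates 2 and 3. It was 3.46 between ASC replicates 2 and 3, and 30.9 to 35.7 for pairs with replicate 1. The fit treats all of them as separate replicates. Total counts were 4961934 to 8148294 in the 6 samples; floors cover counting error only. Promoter letters came from RefSeq on GRCm38.p6. Alternatives were DESeq2's test, other size factors and filters, a fit of only the 6 samples, a replicate block, single samples left out and a stricter threshold; leaving out both first replicates and counting autosomal members only were added after the data were seen.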

Additional observations from a re-analysis of the deposited data

Results flagged for a closer look

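Y-linked transcripts were present in samples outside the comparison. Counts of *Ddx3y*, *Eif2s3y*, *Kdm5d* and *Uty* together were 3255, 3338 and 3180 in the 3 ESC-ASC samples, whereas they were 1, 1 and 1 in the ASC samples and 6, 5 and 1 in the ESC samples. The ESC-ASC values given beside the comparison thus come from cells with other sex chromosomes than the ESC samples here, and culture and line cannot be told apart for them.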

How the results depend on the processing

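No alternative value of a named gene was counted as reversed, although an uncalled gene near 0 could change sign. *Etv5*, for example, had a log2 fold change of 0.14 in the main fit and -0.02 without ESC replicate 1. Of 6863 alternative values for 497 genes that the naming rule picked, 6636 kept their side of the threshold, 185 lost and 42 gained the call. Of 376 called genes, 56 lost the call in at least 1 alternative. DESeq2 called 3110 genes higher and 1172 lower, the fit of only the 6 samples 2647 and 1007, and no filter on low counts 3490 and 1224. These counts, and the 21 list counts followed, stayed within 1.5 times of the reported ones under the other size factors and filters. With autosomal members only, the 21 list counts stayed within that range as well. Lists that were not followed could change more. On autosomes alone, higher neural genes went from 5 to 3 and higher Mage genes from 10 to 1.

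Under the stricter threshold of 2 on the log2 fold change and 3 on the mean log2 level, 922 genes were higher and 198 lower. Higher members were then 2 of the FGF list, 8 of BMP, 3 of Nodal, 4 of WNT, 4 of endoderm, 3 of primitive streak, 5 of hypoxia, 3 of glycolysis, 0 of sterol, 7 of antigen presentation, 11 of germline, 8 of imprinted genes and 3 of semaphorins and plexins. Lower members were 1 of WNT, 0 of LIF, 2 of interferon, 1 of imprinted genes and 0 of zinc finger genes. This follows from the stricter threshold. Without both first replicates the sterol list had 11 higher members. The LIF list had 1 lower member in the fit of only the 6 samples.

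Leaving out 1 sample at a time gave 2836 to 3137 genes higher and 1093 to 1328 lower. Lower WNT members ranged from 5 to 8, with 8 without ASC replicate 3 or ESC replicate 1, lower LIF members from 1 to 3, with 1 without ASC replicate 1, and higher sterol members from 14 to 19. The cause was not tested.

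ASC and ESC samples share replicate numbers, and the deviations of same-numbered samples correlated at 0.14, 0.04 and 0.09. The main fit did not pair them, and whether same-numbered samples were handled together cannot be told from these values. With the number as a replicate block 3151 genes were higher and 1248 lower, and none of the 21 list counts followed moved by over 1.5 times. With 3 samples a group, genes with a few counts per sample have wide errors, and a call that is missing there does not show equal levels.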
